A study of Mus musculus with 8 samples.

Results

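The 9 genes described here encode the oxygen-sensing machinery of the hypoxia-inducible factors (HIFs) and one of its best known targets. They were chosen by name, as Hif1a, Epas1, Arnt, Vhl, Egln1, Egln2, Egln3, Hif1an and Bnip3, and each was matched to 1 Ensembl identifier among the 26930 genes of the count table. All 9 had enough reads to enter the test, which covered 12852 genes. Poly(A) RNA was sequenced from cultured myeloid-derived suppressor cells of the mouse, a class of immature myeloid cells able to dampen T cell responses. C57BL/6 bone marrow precursors from femurs were grown with GM-CSF and IL-6, each at 40 ng/ml, and on day 4 were moved to medium conditioned by TRAMP-C1 cells, a mouse prostate tumour line. The cells are called senescent-like in the labels, and this holds for both groups. In one group, 4 libraries came from cells left untreated, and in the other, 4 libraries came from cells given Romidepsin, an inhibitor of histone deacetylases, at 0.5 µM for 6 h. The sources used here give neither the oxygen level of the cultures nor the number or age of the animals. Since the labels do not tie the libraries to different cultures or mice, the p-values cover only the spread among these libraries, which may be technical.

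HIFs are pairs of an oxygen-labile alpha subunit, HIF-1α (Hif1a) or HIF-2α (Epas1), and a stable partner, ARNT. When oxygen is present, the prolyl hydroxylases PHD2 (Egln1), PHD1 (Egln2) and PHD3 (Egln3) modify the alpha subunit, which is then bound by the von Hippel-Lindau protein (Vhl) and degraded, while the asparaginyl hydroxylase FIH (Hif1an) blocks its contact with the coactivators p300 and CBP. This control acts on the protein, which RNA counts do not measure. In myeloid cells HIF-1α is known for driving glycolysis and inflammatory functions. Bnip3, which encodes a mitochondrial receptor for mitophagy, and Egln3 are classical genes induced by HIF.

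The promoters of the genes with the clearest differences, and that of Bnip3 as the classical target, are shown to locate the short DNA word that HIF binds. RefSeq promoter windows on GRCm38.p6 were matched by symbol for 8 of the 9 genes, Epas1 being the exception. Each sequence is the 250 bases before the annotated start, written 5′ to 3′ on the strand of the gene, and capitals mark ACGTG or GCGTG on either strand (read as CACGT or CACGC on the other). Where such words overlap, as in CACGTG, they were counted as 1 site.
Egln1 (chr8:124949255-124949504, minus strand): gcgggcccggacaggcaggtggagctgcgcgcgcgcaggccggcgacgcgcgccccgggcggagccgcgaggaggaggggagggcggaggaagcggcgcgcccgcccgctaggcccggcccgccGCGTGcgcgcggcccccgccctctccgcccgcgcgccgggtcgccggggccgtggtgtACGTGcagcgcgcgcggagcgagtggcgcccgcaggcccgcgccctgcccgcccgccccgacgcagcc
Egln2 (chr7:27166803-27167052, minus strand): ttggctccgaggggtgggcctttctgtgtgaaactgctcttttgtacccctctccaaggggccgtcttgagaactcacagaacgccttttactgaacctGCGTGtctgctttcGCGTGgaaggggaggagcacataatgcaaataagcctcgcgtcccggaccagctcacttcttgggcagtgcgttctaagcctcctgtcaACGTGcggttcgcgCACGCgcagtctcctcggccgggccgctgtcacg
Vhl (chr6:113623744-113623993, plus strand): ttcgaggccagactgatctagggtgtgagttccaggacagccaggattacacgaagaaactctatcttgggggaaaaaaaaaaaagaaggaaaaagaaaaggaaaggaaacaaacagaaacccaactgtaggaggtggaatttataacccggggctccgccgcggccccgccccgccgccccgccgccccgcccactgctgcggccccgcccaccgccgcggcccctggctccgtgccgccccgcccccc
Bnip3 (chr7:138909507-138909756, minus strand): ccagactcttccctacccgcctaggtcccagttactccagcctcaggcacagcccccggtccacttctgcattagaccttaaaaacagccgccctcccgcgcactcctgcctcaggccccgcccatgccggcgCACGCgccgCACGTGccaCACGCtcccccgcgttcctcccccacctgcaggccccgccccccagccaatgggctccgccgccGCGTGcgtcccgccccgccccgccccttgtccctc
Egln2 has a further annotated start with 1 site. The windows printed hold 2 sites for Egln1, 4 for Egln2, 0 for Vhl and 4 for Bnip3, and those of Hif1a, Arnt, Egln3 and Hif1an hold 2, 1, 1 and 0. Of 32536 different promoter windows of this length, 38.8% hold at least 1 site and 1.44% at least 4. The 250 bases of Egln1 are 86% G or C, against a median of 52.4% over all windows. A match to these letters is a description of the sequence only.

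Total counts per library ranged from 12996892 to 23176949. Treated replicate 3 stood apart. On the first principal component it lay at −1.17, the untreated libraries at −77.3 to −50.6 and treated replicates 1, 2 and 4 at 50.3 to 105.0, so counts of genes called are also given without it. Expression levels are CPM, read counts relative to library size after TMM scaling for library composition, and fold changes are log2 of treated over untreated with their standard error (SE). All 12 listed myeloid markers, among them Itgam, Csf1r, S100a8 and Ly6c2, had enough reads to be tested. Their summed level was 9261 to 14136 CPM in untreated libraries and 1387, 2080, 8123 and 6963 CPM in treated replicates 1 to 4. Of the 12, 2 fell, near the 16.2% of all tested genes that fell. With a replicate block 7 of the 12 fell, against 20.8% of all tested genes. The 5 B cell markers summed to 82.9 to 279.1 CPM in untreated and 17.5 to 77.7 CPM in treated libraries. Of them 4 fell (5 with the block), beside the same shares of all tested genes. The part of these shifts in the results below was not tested, and in bulk RNA fewer cells of a type and less RNA per cell cannot be told apart. Against library size alone, TMM gives log2 fold changes lower by a median of 0.30, and against scaling to 20 housekeeping genes by 0.71. The housekeeping sum rests heavily on Actb, which made up 24.2% to 44.9% of it. Under TMM scaling Actb itself fell (log2 fold change −1.14 ± 0.32, edgeR adjusted p = 0.0235), and of the 20 genes 4 fell and 3 rose. These calls depend on TMM, so they cannot decide between the 2 scalings.

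After Romidepsin, 2 of the 9 genes fell, 1 rose and 6 did not pass the test. Egln1 and Egln2, encoding the prolyl hydroxylases PHD2 and PHD1, fell to 0.545 and 0.494 of their untreated level, and Vhl rose 1.36-fold. In edgeR's quasi-likelihood test with Benjamini-Hochberg adjustment at 0.05, 20.3% of all tested genes rose and 16.2% fell, 36.5% together. The share of the 9 genes that changed, 33.3%, was therefore near the background. Their median log2 fold change was −0.06, against 0.01 over all tested genes, and their median absolute log2 fold change was 0.53, against 0.60. For 3 of the 9, Egln1, Egln2 and Vhl, the groups did not overlap, which was the case for 35.2% of all tested genes (18.7% higher and 16.5% lower). With the libraries paired by replicate number (a replicate block), 1 rose and 2 fell, but the gene that rose was Epas1 and not Vhl, while 21.2% of all tested genes rose and 20.8% fell (41.9% together). Without treated replicate 3, 2 fell and 0 rose in edgeR's test, while 2 of the genes above 0, Vhl and Hif1an, had an unadjusted p under 0.05, and no other tool was run on those 7 libraries. In that fit 24.8% of all tested genes rose and 23.4% fell (48.2% together). Without both libraries of number 3, 2 of the 9 fell, and 20.6% of all tested genes rose and 19.2% fell (39.8% together). With library size scaling 2 of the 9, Epas1 and Vhl, rose and 2 fell, and 30.2% of all tested genes rose and 10.6% fell (40.9% together). With housekeeping scaling Epas1, Vhl and Hif1an rose, and the fold changes of Egln1 and Egln2 stayed below 0 without passing, in a fit where 38.7% of all tested genes rose and 5.52% fell (44.2% together).

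**Figure D1:**
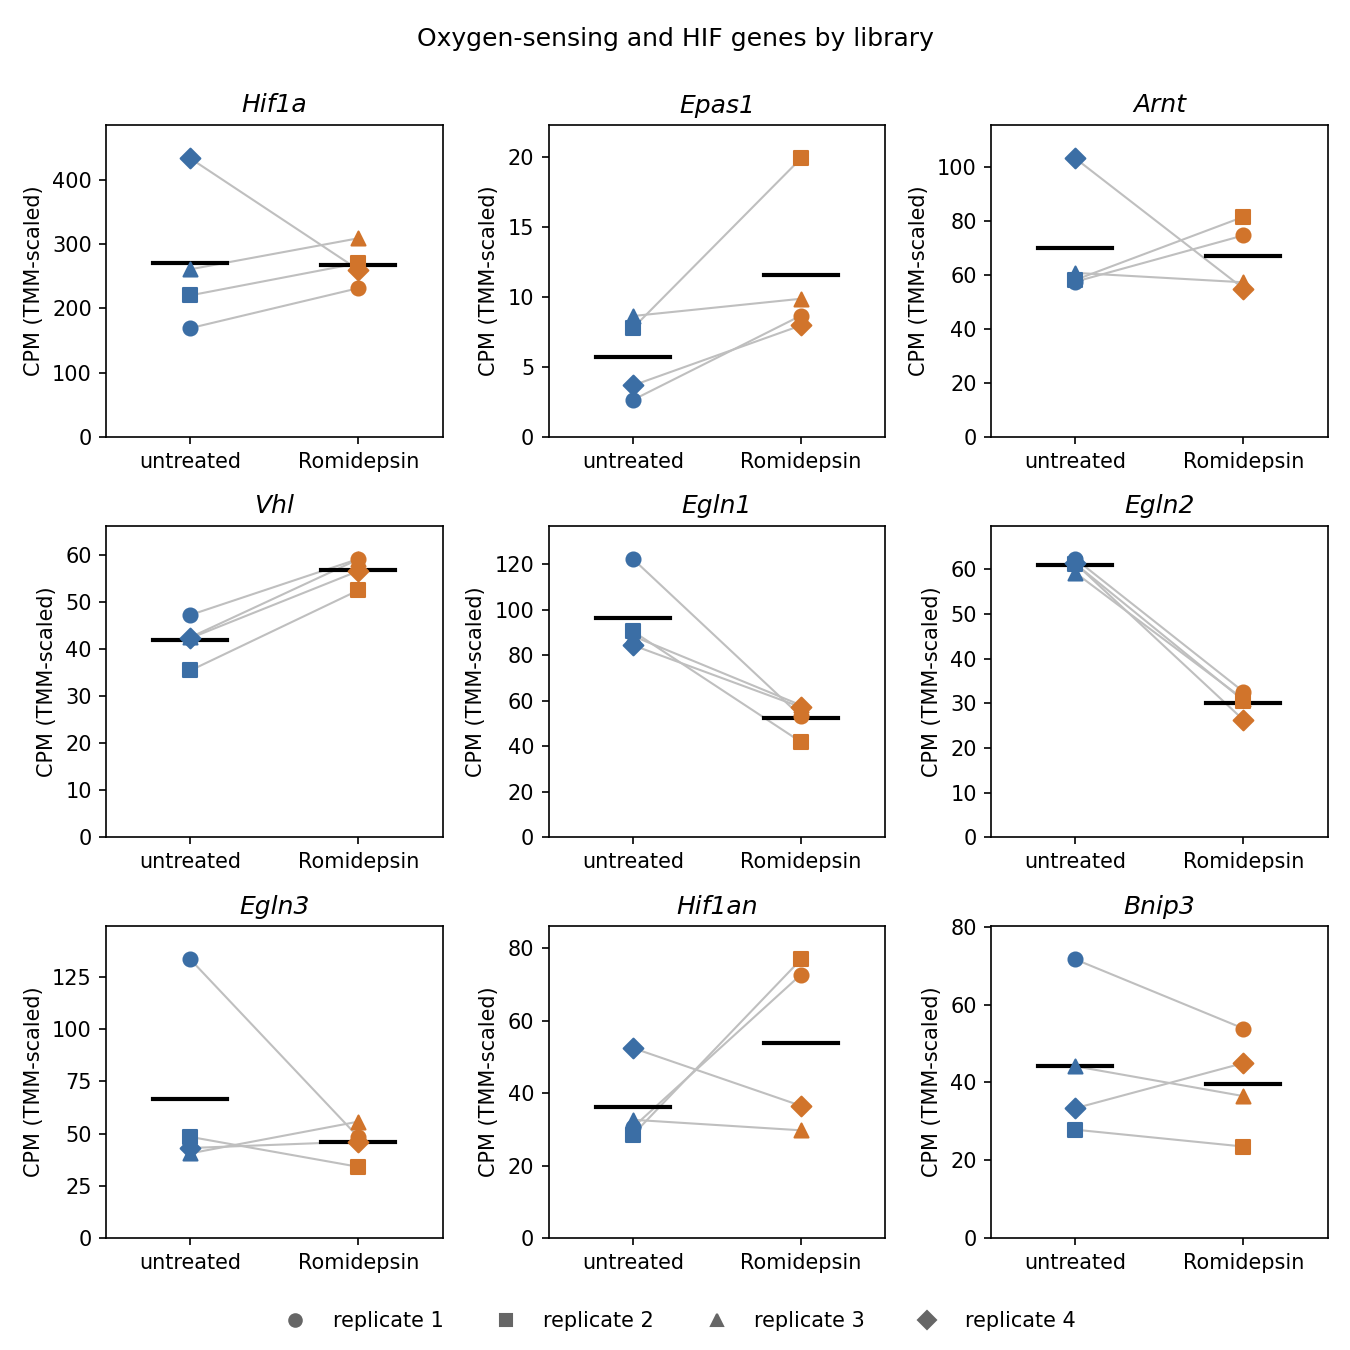
TMM-scaled CPM (y axis, from 0) of the 9 genes in the 4 untreated and 4 Romidepsin-treated libraries, with marker shapes for replicate numbers, grey lines joining libraries of the same number and black bars for group means. Egln1 and Egln2 lie lower and Vhl higher in every treated library than in any untreated one, while the other 6 genes overlap between groups.

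Egln2 (chromosome 7, 27158658 to 27166802, minus strand, GRCm38) encodes PHD1, one of the 3 prolyl hydroxylases that mark HIF-α for degradation. Untreated replicates 1 to 4 held 62.3, 61.2, 59.2 and 61.3 CPM, and treated replicates 1 to 4 held 32.6, 30.6, 30.9 and 26.3 CPM. The groups were far apart and each was tight, at 61.0 ± 1.30 CPM untreated and 30.1 ± 2.69 CPM treated (mean ± SD, n = 4). The log2 fold change was −1.02 ± 0.13 (edgeR adjusted p = 0.00151), and it was lower in 4 of 4 pairs. It was −0.72 with library size scaling (adjusted p = 0.00915) and −0.30 with housekeeping scaling, where it did not pass (edgeR adjusted p = 0.423).

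Egln1 (chromosome 8, 124908587 to 124949324, minus strand) encodes PHD2, regarded as the main HIF hydroxylase in most cells. It was at 122.3, 90.5, 88.4 and 84.4 CPM in untreated replicates 1 to 4 and at 53.2, 41.9, 58.0 and 57.2 CPM in treated replicates 1 to 4. Untreated replicate 1 was the highest, and every treated library lay below every untreated one. The mean fell from 96.4 ± 17.4 to 52.6 ± 7.42 CPM (n = 4 each), a log2 fold change of −0.87 ± 0.18 (edgeR adjusted p = 0.00678), with 4 of 4 pairs lower. With library size scaling it was −0.59 (adjusted p = 0.0329), and with housekeeping scaling it was −0.19 and did not pass (edgeR adjusted p = 0.597).

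Egln3 (chromosome 12, 54178981 to 54203860, minus strand) encodes PHD3, the family member best known as a HIF target. Untreated replicate 1 held 133.4 CPM, whereas untreated replicates 2 to 4 held 48.4, 40.5 and 43.1 CPM. Treated replicates 1 to 4 held 48.2, 34.04, 55.7 and 46.1 CPM, values that spread around those of the lower 3 untreated libraries. The log2 fold change was −0.53 ± 0.39 (95% interval −1.39 to 0.34, edgeR adjusted p = 0.299), 2 of 4 pairs being lower, and it was 0.05 without untreated replicate 1. The same library held 174 CPM of the E-cadherin gene Cdh1, against 4.74 to 5.62 CPM in the other untreated libraries. It also stood above the other untreated libraries in Epcam (2.16 against 0.0483 to 0.164 CPM), the T cell gene Cd3g (19.7 against 0.193 to 1.40 CPM) and the myeloid gene Cd33 (245 against 33.3 to 77.7 CPM), while the epithelial keratin gene Krt18 was at 0.320 CPM. Cd3g and Cd33 do not stand for their lists. Cd3g made up most of the T and NK cell marker sum of 24.5 CPM in that library. Its summed myeloid markers were the lowest of the untreated libraries (9261 against 12126 to 14136 CPM). Csf1r (1477 CPM) and Ly6c2 (573 CPM) were also lowest there, whereas Itgam was highest (902 CPM). The part of these in the Egln3 value was not tested.

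Vhl (chromosome 6, 113623959 to 113631633, plus strand) encodes the substrate-recognition subunit of the ubiquitin ligase that removes hydroxylated HIF-α. Untreated replicates 1 to 4 held 47.3, 35.5, 42.6 and 42.4 CPM, and treated replicates 1 to 4 held 59.2, 52.6, 59.2 and 56.7 CPM. All treated libraries lay above all untreated ones, but the gap was narrow. The mean went from 42.0 ± 4.86 to 56.9 ± 3.12 CPM, with a log2 fold change of 0.44 ± 0.14 (edgeR adjusted p = 0.0344) and 4 of 4 pairs higher. The call was lost with the replicate block (edgeR adjusted p = 0.0534), with no count filter (0.151), without both libraries of number 3 (0.107) and when any single library other than untreated replicate 1 was left out, treated replicate 3 included (edgeR adjusted p = 0.0595 without it).

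Hif1an (chromosome 19, 44562850 to 44576274, plus strand) encodes FIH, which hydroxylates an asparagine of HIF-α. Untreated libraries held 30.5, 28.5, 32.6 and 52.5 CPM in replicates 1 to 4. Treated replicates 1 and 2 were high, at 72.7 and 76.9 CPM, and treated replicates 3 and 4 were not, at 29.7 and 36.5 CPM. The log2 fold change was 0.58 ± 0.34 (95% interval −0.19 to 1.35, edgeR adjusted p = 0.199), with 2 of 4 pairs higher. Without treated replicate 3 it was 0.75 (edgeR adjusted p = 0.0679), and only housekeeping scaling among the settings tried gave a call (1.36, edgeR adjusted p = 0.0420). Treated replicates 1 and 2 are also the libraries with the lowest summed myeloid markers and the highest first principal component, and the part of this in the Hif1an values was not tested.

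Hif1a (chromosome 12, 73901375 to 73947530, plus strand) encodes HIF-1α. It was at 169.4, 220.4, 261.0 and 433.7 CPM in untreated replicates 1 to 4 and at 231.7, 270.6, 309.4 and 260.3 CPM in treated replicates 1 to 4. All 4 treated values lay inside the untreated range, which was set by replicate 1 at the bottom and replicate 4 at the top. The means were 271 ± 115 and 268 ± 32.1 CPM, and the log2 fold change was −0.02 ± 0.28 with a 95% interval of −0.65 to 0.62 (edgeR adjusted p = 0.966). Its sign changed with the scaling, being 0.29 with library size and 0.61 with housekeeping scaling, and it was 0.29 without untreated replicate 4. None of these passed. The gene overlaps Gm15283 on the opposite strand by 330 bases, and that gene held at most 4 reads in any library. How the counting assigned reads in the shared bases is not known.

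Epas1 (chromosome 17, 86753700 to 86833410, plus strand) encodes HIF-2α, the alpha subunit with the narrower tissue range. Its counts were low, at 33 to 105 reads in untreated and 123 to 313 reads in treated libraries. Untreated replicates 1 to 4 held 2.64, 7.76, 8.63 and 3.67 CPM, and treated replicates 1 to 4 held 8.66, 19.9, 9.86 and 7.96 CPM. Treated replicate 2 was high, and 3 of the 4 treated libraries exceeded every untreated one. The log2 fold change was 1.03 ± 0.45 (95% interval 0.02 to 2.05) and did not pass over all genes (unadjusted p = 0.0466, edgeR adjusted p = 0.0978), although 4 of 4 pairs were higher. It passed with the replicate block (1.08, edgeR adjusted p = 0.0239), with library size scaling (1.38, adjusted p = 0.0383) and with housekeeping scaling (1.89, adjusted p = 0.0107), and it was 0.64 without treated replicate 2. The 6 stromal and endothelial markers summed to 198.4 CPM in treated replicate 2 against 38.2 to 53.0 CPM in the other treated libraries, and to 15.7 to 72.8 CPM in untreated ones. Most of that sum came from the collagen genes Col1a1 and Col1a2, at 65.2 and 85.4 CPM. The endothelial marker Kdr, at 37.5 CPM, lay within the 32.1 to 45.5 CPM of the other treated libraries. Cdh5, also endothelial, was at or below 0.318 CPM in every treated library. The part of these marker levels in the Epas1 value was not tested.

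Arnt (chromosome 3, 95434388 to 95497240, plus strand) encodes the shared partner of both alpha subunits. Untreated replicates 1 to 4 held 57.5, 58.1, 60.7 and 103.1 CPM, and treated replicates 1 to 4 held 74.6, 81.5, 57.3 and 54.9 CPM. Untreated replicate 4 was the highest of all 8 libraries, as it was for Hif1a. The log2 fold change was −0.06 ± 0.23 (95% interval −0.58 to 0.47, edgeR adjusted p = 0.852), with 2 of 4 pairs higher. It was 0.26 with library size scaling and 0.64 with housekeeping scaling, without passing.

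Bnip3 (chromosome 7, 138890836 to 138909519, minus strand) was at 71.6, 27.8, 44.1 and 33.4 CPM in untreated replicates 1 to 4 and at 53.9, 23.5, 36.5 and 44.97 CPM in treated replicates 1 to 4. In both groups replicate 1 was the highest and replicate 2 the lowest. The log2 fold change was −0.16 ± 0.34 (95% interval −0.91 to 0.60, edgeR adjusted p = 0.732), with 3 of 4 pairs lower. It was 0.13 with library size scaling and 0.57 with housekeeping scaling, neither passing. The value carries the uncertainty of near-identical copies, since transcripts of 5 other annotated genes, one of them on the opposite strand of the same locus, matched Bnip3 at 95.2% to 99.7% identity over at least 347 bases. The 3 of them in the count table held at most 4 reads in any library, against at least 337 for Bnip3.

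**Figure D2:**
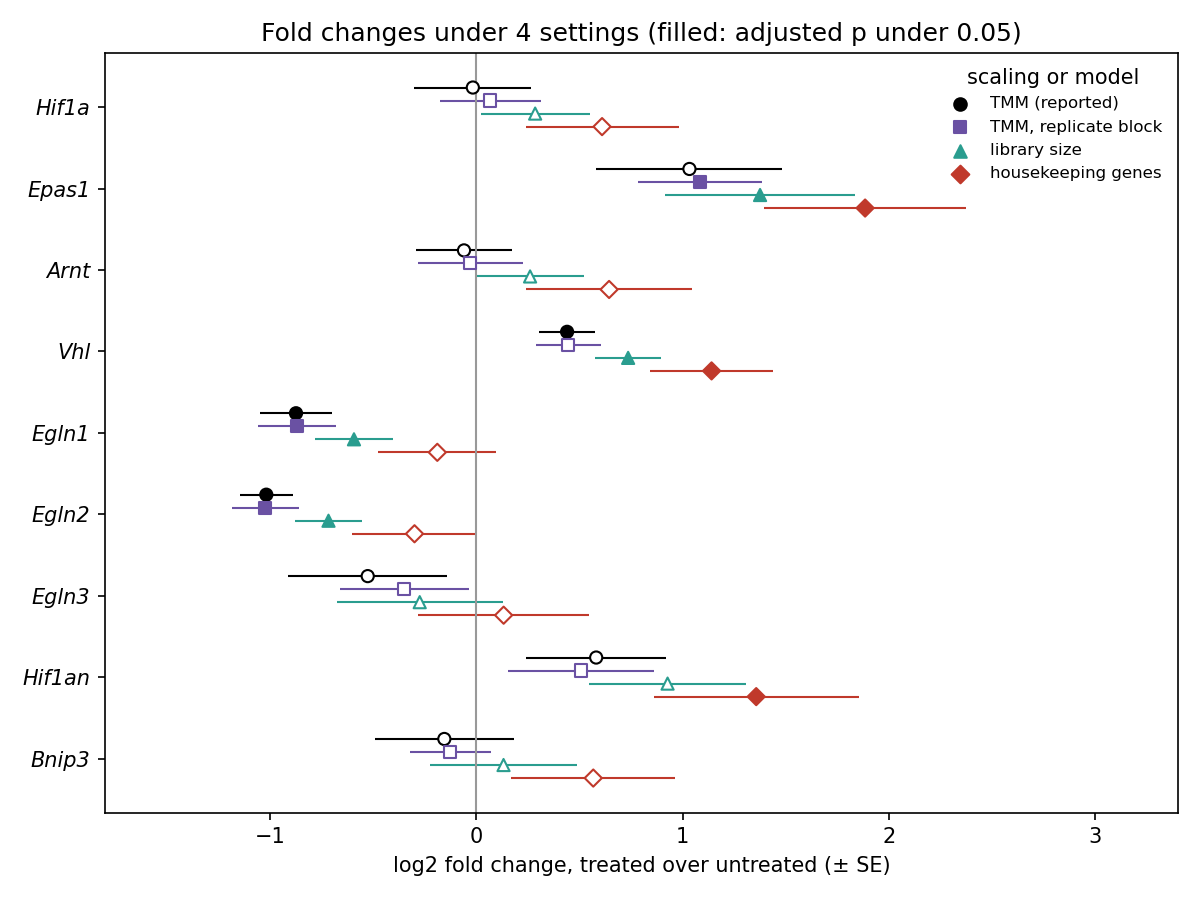
Log2 fold change of treated over untreated (x axis, bars are ± SE) for the 9 genes under TMM scaling, TMM with a replicate block, library size and housekeeping scaling, with filled symbols where the adjusted p was under 0.05. Egln1 and Egln2 stay left of 0 under all 4 settings but lose their calls with housekeeping scaling. Hif1a, Arnt and Bnip3 are above 0 with library size and housekeeping scaling, and Egln3 is above 0 with housekeeping scaling.

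Ratios of counts within a library do not depend on the scaling between libraries. The ratio of Egln2 to Vhl was 1.32, 1.72, 1.39 and 1.44 in untreated replicates 1 to 4 and 0.550, 0.582, 0.522 and 0.463 in treated replicates 1 to 4. That of Egln1 to Vhl was 1.99 to 2.58 in untreated and 0.797 to 1.01 in treated libraries. For both ratios the groups were far apart, and the ratios are the same whichever scaling is used. This separation follows from the levels above and is no further support. Every treated library was lower in Egln1 and Egln2, and higher in Vhl, than any untreated one. The share of all gene pairs that separate in this way was not worked out. The ratio of Egln2 to Egln1 was 0.509 to 0.726 in untreated and 0.459 to 0.730 in treated libraries, and the groups overlapped. Against Hif1a, Egln2 was at 0.1412 to 0.368 in untreated and 0.0999 to 0.1406 in treated libraries, each treated value being below each untreated one by a small margin. These 5 gene pairs, the last being Egln1 to Hif1a at 0.195 to 0.722 and 0.155 to 0.229, were chosen after their values were seen and were not tested.

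For 4 further pairs the log2 ratio was tested by a two-sided exact permutation test of 4 against 4 libraries, whose smallest possible p is 0.0286, with adjustment over the 4 pairs. Epas1 relative to Hif1a was higher by 1.01 in treated cells (exact p = 0.200, adjusted p = 0.267), with untreated libraries at −6.83 to −4.80 and treated ones at −5.01 to −3.76. Egln3 relative to Egln1 was at 0.13, −0.90, −1.12 and −0.97 in untreated replicates 1 to 4 and at −0.31 to −0.06 in treated libraries, a difference of 0.52 (exact p = 0.143, adjusted p = 0.267). Egln3 relative to Egln2 differed by 0.67 (exact p = 0.171, adjusted p = 0.267). For both Egln3 ratios, every treated library lay above untreated replicates 2 to 4 and below untreated replicate 1. Bnip3 relative to its paralogue Bnip3l differed by −0.06 (exact p = 0.914, adjusted p = 0.914). None of the 4 passed.

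**Figure D3:**
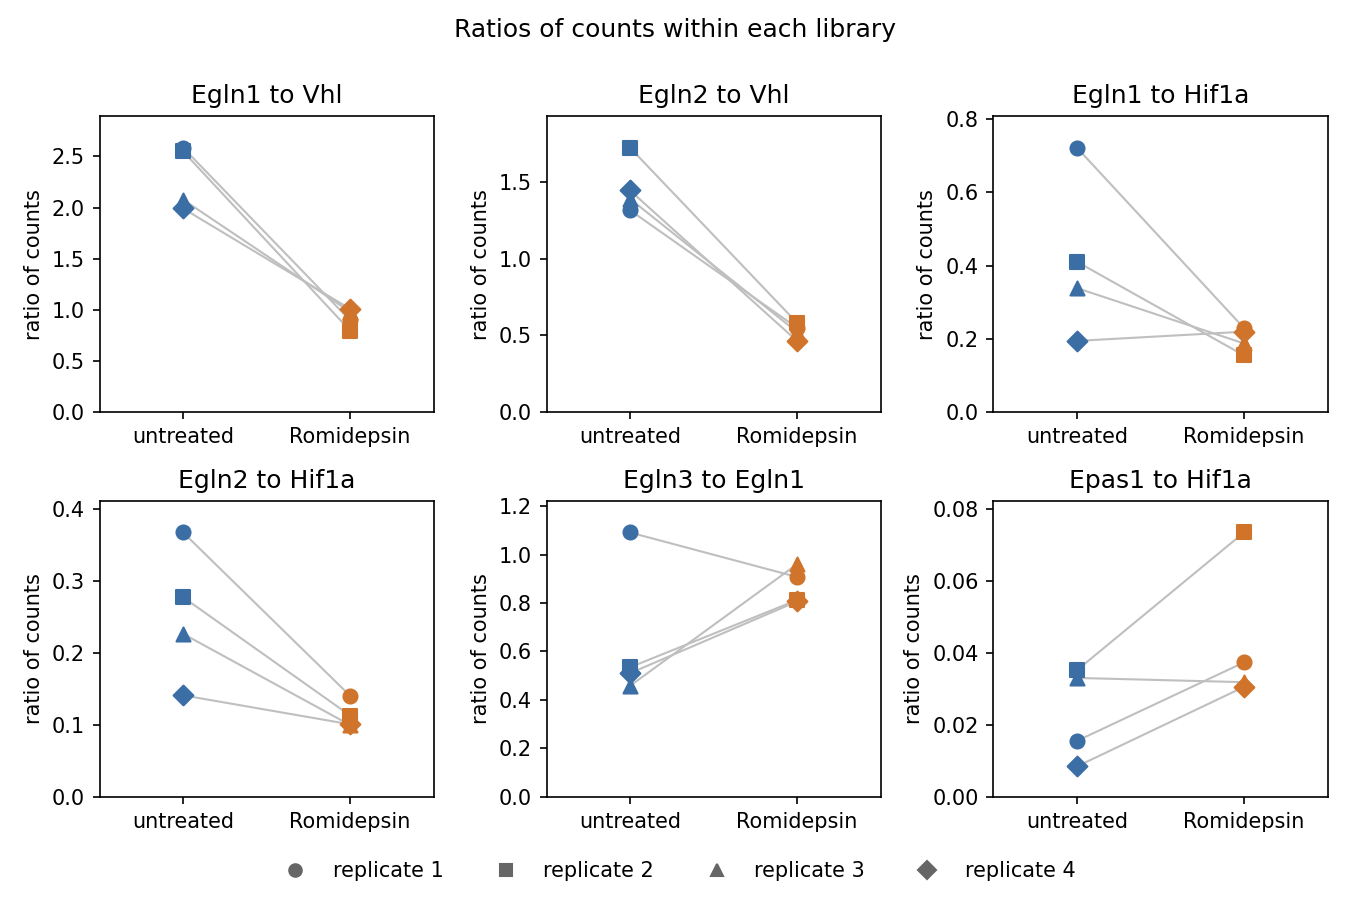
Ratio of raw counts of 6 gene pairs (y axes, from 0) in each untreated and Romidepsin-treated library, with marker shapes for replicate numbers and grey lines joining libraries of the same number. The Egln1 to Vhl ratio lies at 1.99 to 2.58 in untreated and 0.797 to 1.01 in treated libraries, and the Egln3 to Egln1 ratio overlaps between groups through untreated replicate 1.

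Levels of the genes were compared with each other per kilobase of annotated exon. In untreated cells the order from high to low was Hif1a at 46.0 ± 19.4 CPM per kb, Egln1 at 26.8 ± 4.85, Egln3 at 24.9 ± 16.8, Egln2 at 21.8 ± 0.463, Bnip3 at 19.5 ± 8.60, Vhl at 14.0 ± 1.62, Arnt at 8.73 ± 2.77, Hif1an at 5.45 ± 1.68 and Epas1 at 1.02 ± 0.530 (mean ± SD, n = 4). The ranges of neighbours in this order overlapped, except that Epas1 lay below Hif1an in every library. In treated cells Hif1a, at 45.5 ± 5.45 CPM per kb, was separate from the next gene, which was Vhl at 19.0 ± 1.04. Vhl was followed by Bnip3 at 17.5 ± 5.71, Egln3 at 17.3 ± 3.38, Egln1 at 14.6 ± 2.06, Egln2 at 10.7 ± 0.961, Arnt at 8.38 ± 1.63, Hif1an at 8.17 ± 3.68 and Epas1 at 2.07 ± 0.999. By mean level, Egln1 moved from place 2 to place 5 and Vhl from place 6 to place 2. In treated libraries the ranges of Vhl and Bnip3, Bnip3 and Egln3, Egln3 and Egln1, Egln2 and Arnt, and Arnt and Hif1an overlapped. These neighbouring places are therefore not resolved. Vhl lay above Egln1 in every treated library. Among all tested genes Hif1a lay at percentile 90.7 in untreated and 92.6 in treated cells, and Epas1 at percentile 18.1 and 27.0.

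**Figure D4:**
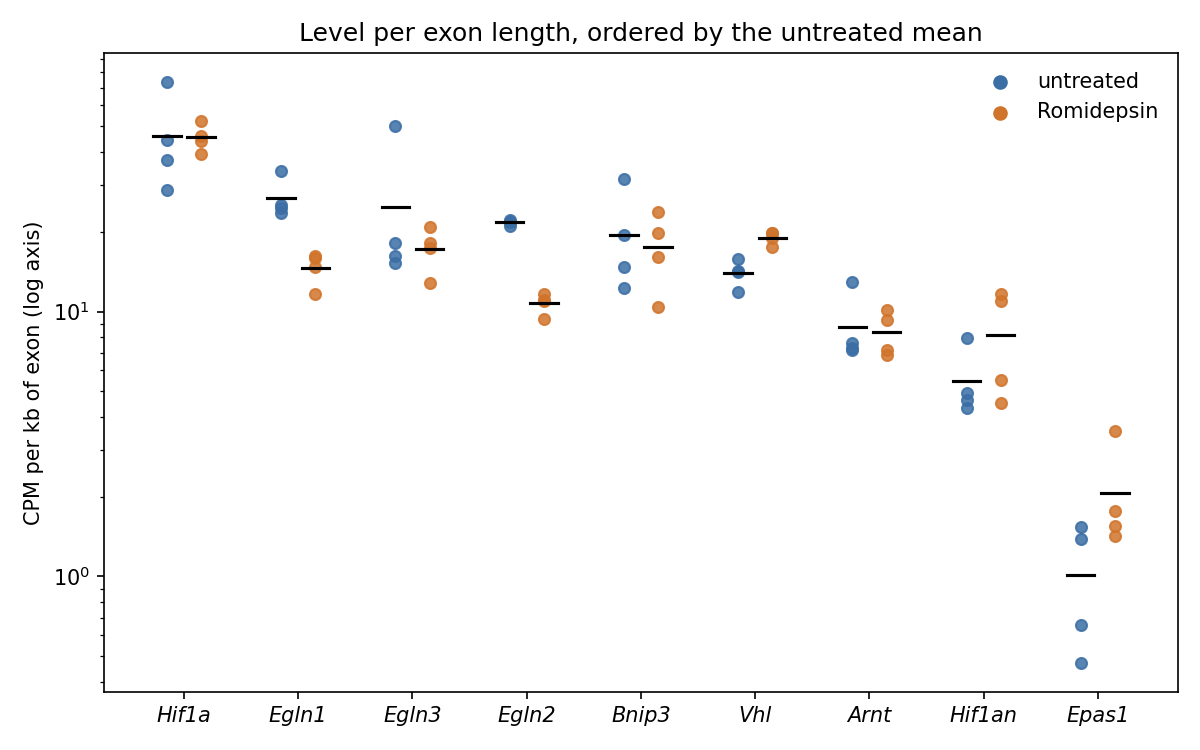
CPM per kilobase of exon (log axis) of the 9 genes in each untreated and treated library, ordered by the untreated mean, with black bars for group means. Hif1a is highest in both groups, with means of 46.0 and 45.5 CPM per kb, and Epas1 is lowest, with means of 1.02 and 2.07.

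Other genes of the pathway were read from lists chosen for their known roles. Of 19 further HIF regulators, 18 were tested (Hif3a, the third alpha subunit gene, had too few reads), and 2 rose, 3 fell and 13 did not pass. The median log2 fold change of the list was 0.02 and 27.8% of it changed, against 36.5% of all tested genes. Without treated replicate 3, 3 rose and 4 fell (48.2% of all tested genes changed), and with the replicate block 3 rose and 2 fell (41.9%), Arnt2, a paralogue of Arnt, being gained (edgeR adjusted p = 0.0419). Ep300 and Crebbp, the coactivators p300 and CBP that HIF-α recruits, both fell. Ep300 went from 199 ± 97.4 to 54.2 ± 23.1 CPM (log2 fold change −1.87 ± 0.38, edgeR adjusted p = 0.00714). Crebbp went from 64.2 ± 9.28 to 20.9 ± 5.53 CPM (−1.62 ± 0.21, edgeR adjusted p = 0.00165). Both were lower in 4 of 4 pairs, did not overlap between groups and kept their calls in all 18 other settings. Fkbp8, which encodes an immunophilin that promotes PHD2 degradation, fell by 0.52 on the log2 scale (edgeR adjusted p = 0.0496), a call lost with the replicate block (adjusted p = 0.0743). Usp20, a deubiquitinase known to act on HIF-1α, rose from 15.9 ± 2.44 to 107 ± 46.5 CPM (2.75 ± 0.36), with treated replicate 3 the lowest treated library at 41.3 CPM. Hsp90aa1, the gene of the inducible HSP90 chaperone that stabilises HIF-1α, rose from 158 ± 28.4 to 340.2 ± 82.4 CPM, whereas Hsp90ab1, the constitutive form and the uncalled gene of the list with the highest mean over both groups, was at 0.01 ± 0.23 (edgeR adjusted p = 0.966). Of the ubiquitin ligase that works with Vhl, Elob, Eloc, Cul2 and Rbx1 did not pass, at 0.06, 0.35, 0.36 and −0.59.

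Of 26 HIF targets outside glycolysis, 22 were tested, and 6 rose, 3 fell and 13 did not pass, with a median log2 fold change of 0.35. The share that changed, 40.9%, was near the 36.5% of all tested genes. With the replicate block 8 rose and 2 fell, beside 21.2% and 20.8% of all tested genes, and Ddit4 and Fam162a were gained (edgeR adjusted p = 0.0125 and 0.00795). Without treated replicate 3, 9 rose and 4 fell, beside 24.8% and 23.4% of all tested genes. Among the genes that rose were the collagen prolyl hydroxylase gene P4ha2, the collagen lysyl hydroxylase gene Plod2, the disulfide-forming oxidase gene Ero1a, Ndrg1 and Hmox1. P4ha2 went from 2.98 ± 1.22 to 19.3 ± 8.85 CPM (2.70 ± 0.42, edgeR adjusted p = 0.00265), Plod2 from 1.49 ± 0.415 to 8.21 ± 3.42 CPM and Ero1a from 66.6 ± 23.2 to 179.8 ± 63.3 CPM. Plod2 was highest in treated replicate 2 (12.96 CPM), the library with the highest stromal marker sum, and the part of this in its value was not tested. P4ha1, the paralogue of P4ha2 and the target with the highest mean over both groups that did not pass, was at 217 ± 30.6 and 265 ± 62.1 CPM (0.29 ± 0.22, edgeR adjusted p = 0.307). The genes that fell were Bhlhe40, a transcriptional repressor (87.1 ± 28.7 to 30.1 ± 6.80 CPM, −1.53 ± 0.26), Car9, the hypoxia marker carbonic anhydrase IX (6.54 ± 1.71 to 3.17 ± 0.879 CPM, −1.04 ± 0.32), and Kdm3a, a histone demethylase (−0.52 ± 0.18). Vegfa, the angiogenic growth factor, was at 241 ± 75.5 and 204 ± 59.8 CPM and did not pass (−0.24 ± 0.28, edgeR adjusted p = 0.519). The calls of Car9 and Kdm3a were near the threshold (edgeR adjusted p = 0.0307 and 0.0460), and that of Kdm3a was lost with the replicate block (adjusted p = 0.0602). Ndrg1, Hmox1, Kdm3a, Vegfa, Ddit4 and Fam162a here, and Arnt2, Elob, Eloc, Cul2, Rbx1, Ldha, Slc2a1, Slc16a3 and Bnip3l among the other lists, are named outside the naming rule and were chosen after their values were seen. Of the targets with too few reads to test, Adm was at 0 to 0.413 CPM in untreated and 0.463 to 3.24 CPM in treated libraries, and Car12 and Cox4i2 were at or below 2.03 CPM in every library. Epo was not analysed here.

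All 21 glycolytic targets were tested, and 1 rose, 3 fell and 17 did not pass, with 17 of the 21 fold changes below 0 and a median of −0.46 on the log2 scale. Of all tested genes, 6392 of 12852 were below 0 and 36.5% changed, against 19.0% of this list. Without treated replicate 3, 1 rose and 6 fell (48.2% of all tested genes changed), and with the replicate block 1 rose and 4 fell (41.9%), the lactate transporter gene Slc16a3 being gained (edgeR adjusted p = 0.0396). The median was −0.17 with library size and 0.22 with housekeeping scaling, so its direction depended on the scaling. Some of the 21 targets are also among the housekeeping genes, so that scaling is not independent of the list. The liver-type phosphofructokinase gene Pfkl fell from 234 ± 25.0 to 122 ± 17.6 CPM (−0.94 ± 0.17, edgeR adjusted p = 0.00447). Pfkfb4, which makes the activator of phosphofructokinase, fell by 0.77 on the log2 scale and the glycogen synthase gene Gys1 by 0.92. Pfkp, the platelet-type phosphofructokinase gene, rose from 125 ± 21.7 to 195 ± 26.1 CPM (0.64 ± 0.18, edgeR adjusted p = 0.0231). Aldoa, the uncalled gene with the highest mean over both groups, was at 2129 ± 413 and 1519 ± 359 CPM (−0.49 ± 0.27, edgeR adjusted p = 0.176), Ldha was at −0.53 ± 0.22 (adjusted p = 0.0869) and the glucose transporter gene Slc2a1 at 0.44 ± 0.23 (adjusted p = 0.154). With housekeeping scaling 3 of the 21 rose, beside 38.7% of all tested genes. The fold changes of Pfkl, Pfkfb4 and Gys1 were then −0.28, −0.10 and −0.28.

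Of 16 genes that act with Bnip3 in mitophagy or bind it, 15 were tested, and 2 rose, 3 fell and 10 did not pass, with a median log2 fold change of 0.17. The share that changed, 33.3%, was near the 36.5% of all tested genes. Without treated replicate 3, 2 rose and 4 fell (48.2% of all tested genes changed), and with the replicate block 1 rose and 3 fell (41.9%). Fundc1, a mitophagy receptor linked to hypoxia, fell from 54.9 ± 6.59 to 21.2 ± 9.93 CPM (−1.37 ± 0.30, edgeR adjusted p = 0.00909). Pink1, the kinase that starts ubiquitin-dependent mitophagy, fell from 68.4 ± 14.3 to 27.8 ± 10.6 CPM (−1.30 ± 0.27, edgeR adjusted p = 0.00739). Treated replicate 3 held the highest treated values of both, 35.01 CPM of Fundc1 and 43.4 CPM of Pink1. Bcl2l1, which encodes BCL-XL, fell by 1.02 on the log2 scale. Gabarapl2 and Map1lc3b, of the LC3 family that BNIP3 binds, rose (0.85 ± 0.24 and 0.51 ± 0.17), the second call being lost with the replicate block (edgeR adjusted p = 0.0732). Sqstm1, the autophagy receptor p62, did not pass (0.24 ± 0.22). Bnip3l, the paralogue of Bnip3, was at 123 ± 10.3 and 118 ± 18.0 CPM and did not pass either (−0.06 ± 0.16, edgeR adjusted p = 0.791).

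**Figure D5:**
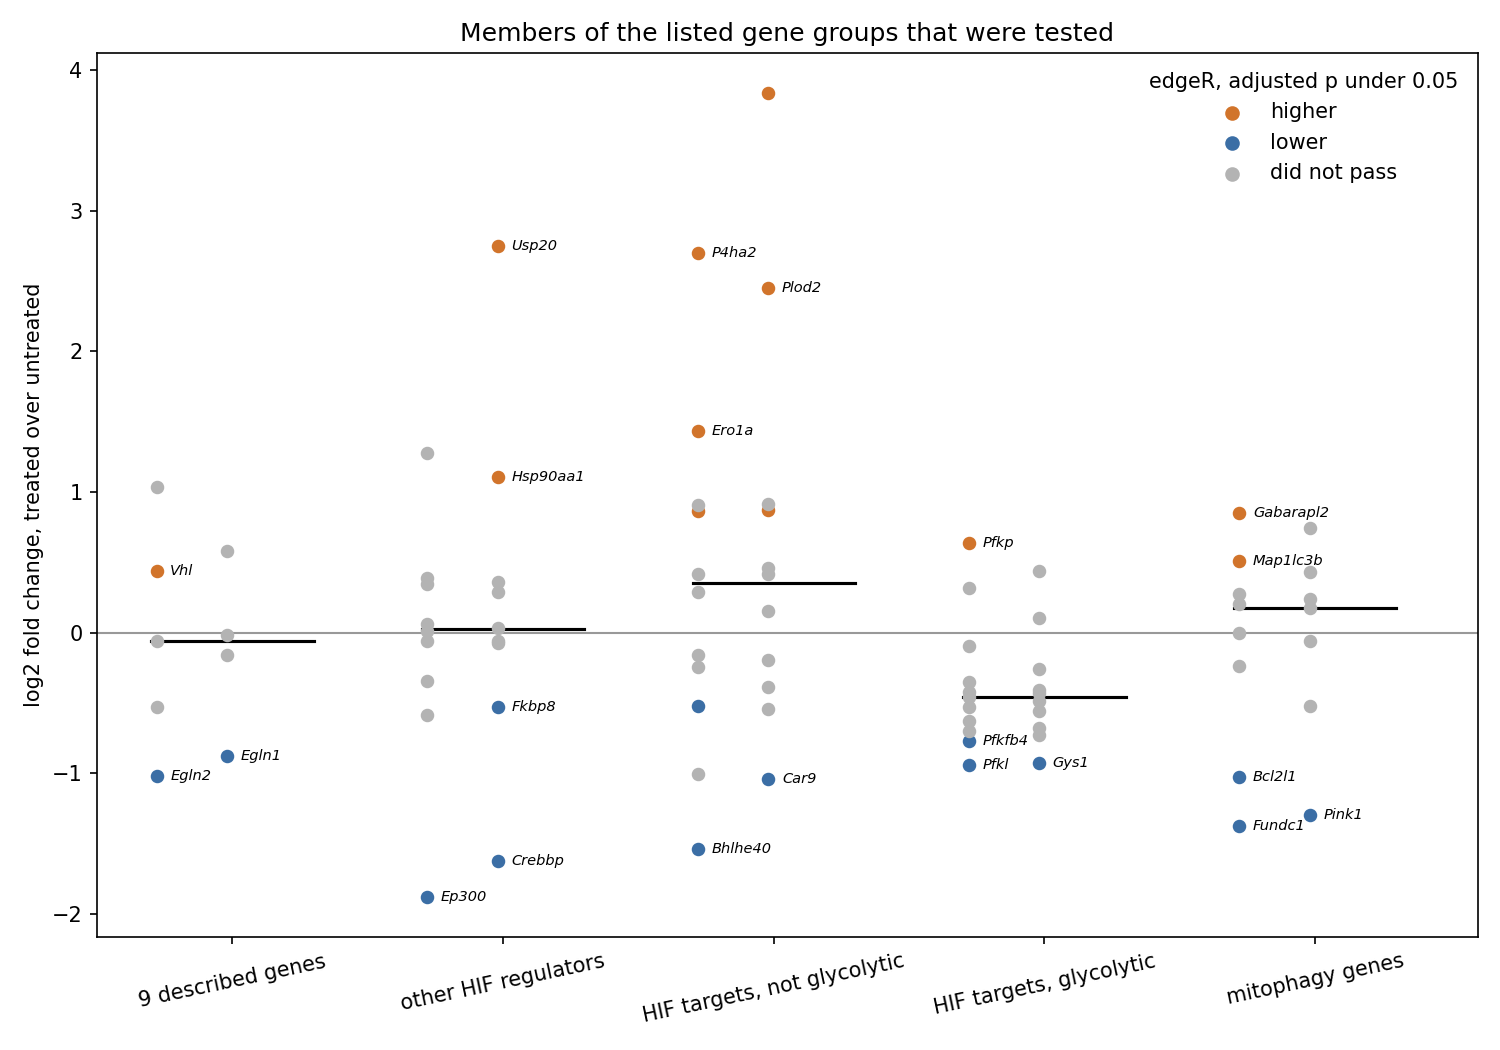
Log2 fold change (y axis) of each tested gene of the 9 described genes and the 4 pathway lists, coloured by the call at an adjusted p of 0.05, with black bars for list medians. The 21 glycolytic targets have a median of −0.46 with 17 genes uncalled, and the other targets hold both genes that rose, among them P4ha2 at 2.70, and genes that fell, down to Bhlhe40 at −1.53.

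The genes whose log2 CPM over the 8 libraries was most like that of Egln2 were Ap1m1, an adaptor protein subunit of clathrin coats (Pearson r = 0.997), Exosc10, a nuclease of the RNA exosome (r = 0.992), and Toe1, a deadenylase (r = 0.992), out of 9038 genes averaging 10 CPM or more. For Egln1 they were Atxn10, Gnai2 and Rbm3, a cold-inducible RNA-binding protein, each at r = 0.984. All 6 had fold changes below 0 (−0.49 for Gnai2, which did not pass, to −1.39 for Exosc10). These correlations are descriptions over 8 libraries that share the treatment contrast, with no test.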

How the data were processed

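The authors deposited raw counts per Ensembl gene for the 8 libraries. FastQC, STAR 2.5.2a, DESeq2 and the builds GRCm38 and mm10 are named per the submitters' processing notes, whereas the sources used here do not give the counting tool, its annotation or its strand setting. Without a stated strand, reads of a gene and its antisense partner cannot be told apart; of the genes named, Hif1a, Egln2, Bnip3, Fkbp8, Elob, Arnt2, Plod2, Bhlhe40, Car9, Ndrg1, Fam162a, Gys1, Pfkp, Aldoa, Slc2a1, Map1lc3b, Sqstm1, Toe1, Rbm3 and Csf1r overlap one. Hif1a, Ep300, Pink1 and Itgam overlap a gene on their own strand. Overlaps of Col1a2, Kdr and Cdh5 are not given here. Symbols, positions and exon lengths came from GENCODE annotation of GRCm38, which matched 26881 of 26930 identifiers.

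Counts were filtered with filterByExpr, leaving 12852 genes, scaled with TMM and tested with edgeR 4.0.16 (R 4.3.3; quasi-likelihood F test, two-sided, robust, 4 against 4 libraries, no block), with Benjamini-Hochberg adjustment over all tested genes and a threshold of 0.05. The procedure was tested on simulated data in which few genes changed, as many raised as lowered. Such data cannot check the scaling where many genes change. Total counts of 12996892 to 23176949 set the depth. log2 CPM for ratios and likeness used a prior count of 2. Alternatives were other scalings, filters, DESeq2 1.42.0, limma 3.58.1 (voom), a replicate block, and leaving out libraries. Deviations from the group means of libraries with the same number correlated at 0.17 to 0.53 (at most 0.05 between numbers), above the bound of 0.1, which meets the condition for pairing. The main test and the ratio tests stayed unpaired, and the blocked value is given where it changes a call; the labels do not say what a number marks. Near copies were transcripts of at least 95% identity over at least 75 bases.

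The 9 genes and the gene lists were chosen with earlier results of these data known. From each list the text names at most 3 called genes, by smallest p, of the direction with more calls, at most 2 of the opposite direction, and the uncalled gene with the highest mean CPM over both groups. For the 2 called genes of the 9 with the largest fold change, it names the 3 genes of at least 10 CPM most correlated with each. Some genes of the lists enter the counts and medians but are not reported here by name.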

Additional observations from a re-analysis of the deposited data

Results flagged for a closer look

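In 84 groups of 4 libraries examined, 7 had a library far from the other 3, by a gap that passes the 95% limit of Dixon's test, and chance gives about 1 in 20 groups. Untreated replicate 1 was the distant library for Egln3, at 133.4 CPM against 40.5 to 48.4 CPM in the other untreated libraries, and for Egln1, at 122.3 CPM against 84.4 to 90.5 CPM. The same library was distant for Hsp90ab1, at 1709.7 CPM against 1172 to 1209.7 CPM, and for Rbm3, at 220.5 CPM against 141 to 152 CPM. Its log2 ratio of Egln3 to Egln2 was 1.10, against −0.54 to −0.34 in the others.

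Arnt was at 103.1 CPM in untreated replicate 4, against 57.5 to 60.7 CPM in the other untreated libraries. Epas1 was at 19.9 CPM in treated replicate 2, against 7.96 to 9.86 CPM in the other treated libraries.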

How the results depend on the processing

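Egln1 and Egln2 kept their direction in 18 of 18 alternatives and their calls in 17, the exception being housekeeping scaling; without 1 library at a time their log2 fold changes were −0.96 to −0.75 and −1.06 to −0.96. Vhl stayed above 0 in 18 and kept its call in 8. Of the other named genes, the calls of Map1lc3b, Bcl2l1, Car9, Pfkp and Gabarapl2 were lost in 9, 7, 7, 5 and 4 alternatives, and that of Fkbp8 in 12, besides 1 in which it changed sign.

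The numbers of the 9 genes that rose were 2 with library size and 3 with housekeeping scaling. In edgeR's test they were 0 with no count filter, 0 without both libraries of number 3 and 0 to 1 without 1 library at a time. DESeq2 and limma each gave 1, but were run only on all 8 libraries with the count filter. The number that fell was 0 with housekeeping scaling and 2 without any 1 library. Over all genes, 3886 rose with library size scaling, 4970 with housekeeping scaling and 2532 with no count filter. The number was 2814 with DESeq2's Wald test, 2575 with limma and 2689 without both libraries of number 3. Without 1 library at a time it was 1793 to 3270. Of all genes, 1368 fell with library size scaling, 709 with housekeeping scaling and 1187 to 3077 without 1 library. The 4 pathway lists, with 18, 22, 21 and 15 tested genes, together held 11 higher and 12 lower calls in the main test. Library size scaling gave 21 higher calls, beside 30.2% of all tested genes. Housekeeping scaling gave 28 higher and 3 lower calls, beside 38.7% and 5.52% of all tested genes. Leaving out 1 library at a time gave 7 to 15 higher and 8 to 18 lower calls. The largest numbers came without treated replicate 3, beside 24.8% and 23.4% of all tested genes. The causes were not tested.

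Signs changed as follows, with no value past the threshold after the change. With library size scaling Hif1a, Arnt and Bnip3 were at 0.29, 0.26 and 0.13. With upper-quartile scaling Hif1a and Arnt were at 0.067 and 0.026, and with limma-voom Hif1a was at 0.093. With housekeeping scaling Hif1a, Arnt, Egln3, Bnip3, Fkbp8, Aldoa, Ap1m1 and Gnai2 were at 0.61, 0.64, 0.13, 0.57, 0.18, 0.20, 0.020 and 0.20. Hsp90ab1 was at −0.016 with DESeq2 size factors, −0.015 with no count filter and −0.016 with the DESeq2 Wald test. Without 1 library at a time, Hif1a was at −0.20 to 0.29, Arnt at −0.16 to 0.18, Egln3 at −0.72 to 0.052, Bnip3 at −0.34 to 0.16, Hsp90ab1 at −0.055 to 0.15 and the log2 ratio of Bnip3 to Bnip3l at −0.22 to 0.22.

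With the replicate block, Hif1a was at 0.068 (edgeR adjusted p = 0.839), Vhl at 0.45 (adjusted p = 0.0534) and Epas1 at 1.08 (adjusted p = 0.0239), and the calls of the other 7 genes did not change. Among the listed genes, calls of Arnt2, Ddit4, Fam162a and Slc16a3 were gained and those of Fkbp8, Kdm3a and Map1lc3b were lost. The 4 ratios could not pass with 4 pairs, whose smallest exact p is 0.125. Epas1 had no value with a minimum mean of 10 CPM, and its low counts limit its precision.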
